A study of Mus musculus with 19 samples.

Results

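Genes of the neutrophil, a white blood cell of the innate immune response that carries antimicrobial proteins in granules, were followed in the lungs of mice given a mixture of polycyclic aromatic hydrocarbons (PAHs). The genes encode the calprotectin subunits S100a8 and S100a9, the secreted protein Retnlg, the granule proteins Ngp, Camp, Ltf, Mmp8 and Mmp9, and the receptors Cxcr2 and Csf3r. They were taken as every array probe whose RefSeq identifier belongs to 1 of these 10 symbols, which gave 11 of the 55681 probes on the array. Camp had 2 probes and each other gene had 1. All 11 probes passed the filter for testing, among 31088 probes that did. Of 20660 gene symbols with a probe, 14752 had a probe that was tested.

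The animals were male mice of the transgenic MutaTMMouse strain, about 12 weeks old, which received the 8PAH mixture in olive oil by oral gavage each day for 28 days and whose lungs were taken 72 h after the final dose. D0 was the olive oil control with 5 mice, D1 received 15 mg benzo[a]pyrene (BaP) equivalents per kg body weight per day (4 mice), D2 received 30 (5 mice) and D3 received 60 (4 mice). RNA from lung was labelled red (Cy5) and hybridized beside the same green (Cy3) reference on every array, a pool of RNA from 11 mouse cell lines, so each value below is a log2 ratio of lung over reference for 1 mouse, and no dyes were swapped. The mice were bled out before the lung was removed, and RNA came from sections of whole lung tissue, so more neutrophils in a lung and more RNA per neutrophil (or fewer cells and less RNA per cell) cannot be told apart. Mouse 35 of D3 had 2 arrays, which were averaged. The array labelled D2 mouse 23 carries a number from the D1 series. Counts of mice per dose in the methods fit its membership of D1 rather than D2. It stays under its D2 label here, and results that change once it is moved to D1 are given with the genes concerned.

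Neutrophils are made in the bone marrow, circulate in blood for a short time, and are held in large numbers in the capillaries of the lung. Their granules are filled in order as the cell matures: primary granules with myeloperoxidase and serine proteases, then secondary granules with lactoferrin, cathelicidin and neutrophil collagenase, then gelatinase granules. Transcripts for most granule proteins are abundant in marrow precursors and decline afterwards, whereas those of calprotectin and of the chemokine receptor Cxcr2 remain high in the mature cell that leaves the marrow under the control of granulocyte colony-stimulating factor and CXC chemokines.

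At the top dose, 6 of the 10 genes were higher than in the control: S100a8, S100a9, Retnlg, Mmp8, Mmp9 and Cxcr2. Genes were called at an adjusted p (limma, Benjamini-Hochberg over all tested probes) of no more than 0.05 together with a change of 1.5-fold or more, and 1.20% of all tested probes were called higher at D3 by this rule. None of the 10 was called lower, where 1.22% of all probes were. At D1 and at D2 the only gene called by its brightest probe was Mmp8, against 0.592% and 0.434% of probes called higher at these doses. With mouse 23 counted in D1, Ngp and Camp were also called at D1. The share of all probes called in that fit was not computed. The median log2 fold change over the 10 genes was 0.72 at D1, 0.51 at D2 and 0.88 at D3, where the median over all tested probes was 0.007, -0.004 and -0.002. These 3 comparisons share the same 5 control mice. With arrays centred on the median in place of loess, 2 of the 6 genes were called at D3 (S100a8 and Mmp8), against 0.261% of all probes called higher in that fit. The changes of the other 4 were 0.92 for S100a9, 1.24 for Retnlg, 0.66 for Mmp9 and 0.87 for Cxcr2, close to those with loess, with limma adjusted p-values of 0.168 to 0.591. With the scanner software's processed signals, 3 genes were called at D3 (S100a8, Mmp8 and Mmp9), against 1.57% of probes. At D1 and D2, 0.0386% and 0.0515% of probes were called higher with median centring, and 0.721% and 0.566% with processed signals.

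Ngp, Camp and Ltf are secondary granule genes, as is Mmp8, which was called at every dose. The fitted changes of Ngp, Camp and Ltf were 0.77, 1.29 and 1.23 at D1, 0.67, 1.34 and 0.55 at D2, and 0.26, 0.89 and 0.57 at D3. By their brightest probes, none of these changes was called with mouse 23 in D2 as labelled. With mouse 23 counted in D1, Ngp (0.81, limma adjusted p = 0.0385) and Camp (1.43, adjusted p = 0.0394) were called at D1. Ngp passed the filter for testing through the treated groups alone, where its values were higher. The differences between treated groups were not called for any of the 3. Csf3r, the receptor for granulocyte colony-stimulating factor, was below the control mean in all 13 treated mice, by less than 1.5-fold on average, although its mean changes at D1 and D2 were 0.06 with median centring. The sequence of its probe was not used here, and whether the signal is that of Csf3r was not tested.

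**Figure D1:**
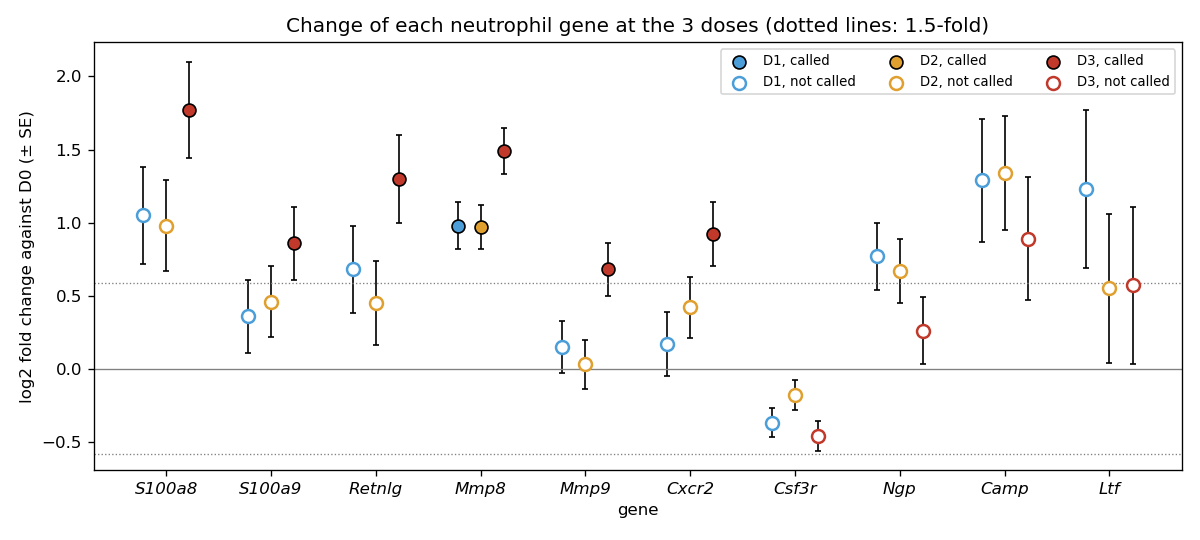
Log2 fold change against D0 (y axis, ± SE) of the brightest probe of each gene (x axis) at D1, D2 and D3, filled where called and open where not, with dotted lines at a 1.5-fold change. S100a8, S100a9, Retnlg, Mmp8, Mmp9 and Cxcr2 are filled at D3, Mmp8 is filled at every dose, and Ngp, Camp and Ltf are open throughout, with mouse 23 in D2.

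The start sites of 9 of the 10 genes matched a table of RefSeq promoters (assembly GRCm38.p6). Of these, 3 stretches of 250 bases, ending at the base before the start site, are shown because they belong to the gene with the largest fitted change at D3 (S100a8), the gene called at every dose (Mmp8) and a gene with a smaller change at D3 than at D1 (Ngp). All 3 lie on the plus strand, at chr3:90668821-90669070, chr9:7558179-7558428 and chr9:110419558-110419807 in that order, and are written 5′ to 3′ with the matched motifs in capitals.
S100a8: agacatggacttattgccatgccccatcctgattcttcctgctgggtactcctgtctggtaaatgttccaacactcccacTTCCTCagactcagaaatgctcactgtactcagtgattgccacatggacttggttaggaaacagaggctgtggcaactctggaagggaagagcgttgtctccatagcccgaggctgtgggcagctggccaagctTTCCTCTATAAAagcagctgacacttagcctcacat
Mmp8: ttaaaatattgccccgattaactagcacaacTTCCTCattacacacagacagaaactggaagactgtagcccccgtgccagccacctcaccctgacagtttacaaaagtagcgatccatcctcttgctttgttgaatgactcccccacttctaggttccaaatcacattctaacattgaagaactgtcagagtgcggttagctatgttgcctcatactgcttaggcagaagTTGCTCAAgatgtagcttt
Ngp: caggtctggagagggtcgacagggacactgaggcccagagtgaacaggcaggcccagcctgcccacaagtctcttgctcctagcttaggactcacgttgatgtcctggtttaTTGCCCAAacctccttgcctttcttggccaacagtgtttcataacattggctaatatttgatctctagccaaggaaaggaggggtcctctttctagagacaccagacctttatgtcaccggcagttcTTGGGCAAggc

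The capitals mark 3 motifs, chosen after the expression values were seen. TTGCNNAA is a pattern bound by C/EBP factors, the regulators of granule genes, and GAGGAA, or TTCCTC on the opposite strand, is a core bound by ETS factors such as PU.1. TATAAA is the TATA box and was searched on the plus strand alone, the others on both strands. The C/EBP-type pattern was found in 5 of 9 promoters (S100a9, Retnlg, Ngp, Ltf and Mmp8), against 9.56% of 32851 promoters of the same length. In Mmp8 it lay 19 bases before the start site and in Ngp it lay 138 and 11 bases before it. The ETS core was found in 5 of 9 (S100a8, Ltf, Mmp8, Cxcr2 and Csf3r), against 23.3% of promoters. S100a8 held the ETS core at 170 and at 36 bases before its start site. The latter directly adjoined, without overlap, a TATA box at 30 bases, a motif held by 7.59% of promoters. GCGTG, the core of the xenobiotic response element bound by the aryl hydrocarbon receptor that PAHs activate, was in none of the 9 windows and in 28.2% of all promoters. A match is a run of letters and says nothing of binding, and neither does its absence.

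S100a8 and S100a9 form calprotectin, the calcium- and zinc-binding complex that fills the neutrophil cytoplasm. For S100a8 (NM_013650) the log2 ratios of D0 mice 1 to 5 were 1.29, 1.47, 1.29, 1.99 and 0.82, and those of D1 mice 21, 22, 24 and 25 were 2.56, 2.52, 2.19 and 2.44. In D2, mice 26, 28, 29, 30 and 23 had 3.01, 2.12, 2.57, 2.21 and 1.85, and in D3, mice 31, 32, 34 and 35 had 2.85, 3.02, 4.49 and 2.20. All D1 and all D3 mice lay above every control mouse, and 4 of the 5 D2 mice did so. The D3 mean exceeded the D0 mean by 1.77 ± 0.33 on the log2 scale (SE, n = 4 and 5), a 3.4-fold difference (limma adjusted p = 0.00178). The changes at D1 and D2 were 1.05 ± 0.33 (adjusted p = 0.0716) and 0.98 ± 0.31 (adjusted p = 0.113) by limma and were not called. With slide as a fixed block, S100a8 was called at D1 (1.11, limma adjusted p = 0.0348).

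For S100a9 (NM_009114) the control mice had log2 ratios of 6.64, 6.44, 6.88, 7.41 and 6.08, and the D3 mice had 7.16, 7.51, 8.35 and 7.19. The groups overlapped, since control mouse 4 was above 2 of the 4 D3 mice. The change at D3 was 0.86 ± 0.25 (SE; limma adjusted p = 0.0286), or 1.82-fold. D1 mice had 7.06, 6.87, 7.29 and 6.96 and D2 mice had 7.36, 6.86, 7.40, 7.45 and 6.69, with changes of 0.36 and 0.46 that were not called (0.05 and 0.14 with processed signals, 0.77 and 0.89 with the lung channel alone, also not called). The S100a9 call at D3 lay near the threshold. It was lost without D3 mouse 34 (0.60, limma adjusted p = 0.11), and also without D3 mouse 32 (0.88) or without control mouse 1, 2 or 5 (0.85, 0.80 and 0.71), with limma adjusted p-values between 0.0535 and 0.0726. The size of the S100a9 change also moved with the processing: it was 0.31 with the scanner software's processed signals (limma adjusted p = 0.532, not called) and 1.61 with the lung channel alone (limma adjusted p = 0.0018). Among 9 tested genes of a list of other S100 and resistin-like proteins, none was called at any dose.

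**Figure D2:**
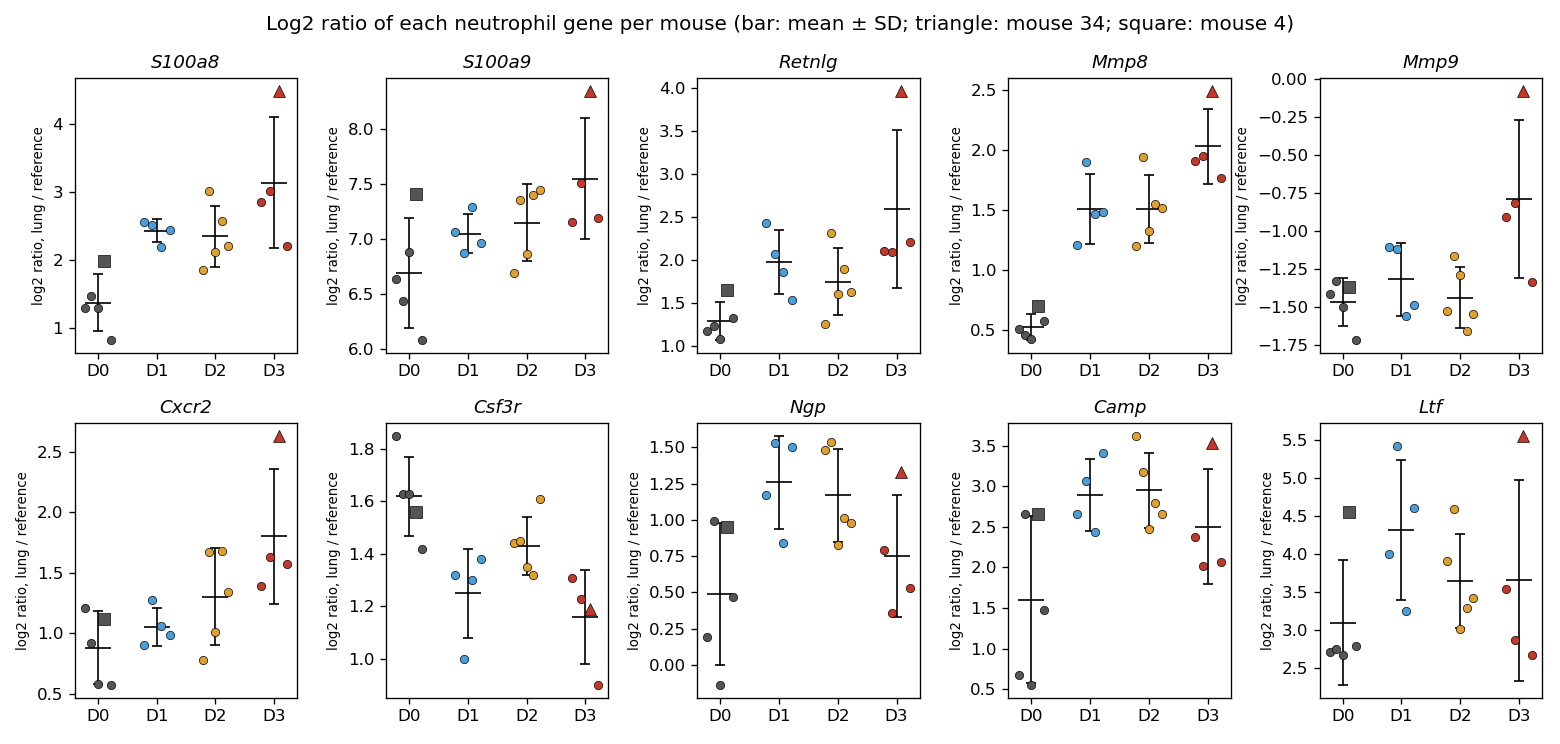
Log2 ratio of lung over reference (y axis, a separate scale for each gene) for the brightest probe of each gene in every mouse, by dose group (x axis: D0 0, D1 15, D2 30 and D3 60 mg BaP equivalents/kg/day), with the group mean ± SD. The triangle is D3 mouse 34, the highest of all 18 mice for 7 genes, and the square is D0 mouse 4, the highest control mouse for 6.

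Mmp8 and Mmp9 are the metalloproteinases of neutrophil granules, a collagenase of secondary granules and a gelatinase of the granules that follow. Mmp8 (NM_008611) had the narrowest control values, 0.51, 0.46, 0.43, 0.70 and 0.58. D1 mice had 1.21, 1.90, 1.47 and 1.48, D2 mice 1.94, 1.33, 1.55, 1.52 and 1.20, and D3 mice 1.91, 1.95, 2.49 and 1.77. Every treated mouse was above every control mouse at all 3 doses, as was the case, in the higher direction, for 4.73%, 2.51% and 7.45% of all tested probes at D1, D2 and D3. The changes were 0.98 ± 0.16, 0.97 ± 0.15 and 1.49 ± 0.16 (SE), with limma adjusted p-values of 0.00187, 0.00111 and 6.68e-06. Mmp8 was called at each dose in all 18 analyses that left out 1 mouse. It was lost at D1 where arrays were centred on the median instead of by loess (1.00, limma adjusted p = 0.0558) and at D2 with the scanner software's processed signals (1.60, limma adjusted p = 0.101). With those signals Mmp8 was called at D1 and D3 at larger changes of 1.88 and 2.45 (limma adjusted p = 0.0422 and 0.00484). The probe was dim: control mice had lung signals of 118 to 177.5, where the median spot of an array had 114 to 151.5. No background was subtracted from them, and the part of this in the narrow control values was not tested.

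Mmp9 (NM_013599), measured by 10 spots of its probe, was lower in lung than in the reference in every mouse. Control mice had -1.42, -1.33, -1.5, -1.37 and -1.72, and D3 mice had -0.91, -0.82, -0.08 and -1.34. Mouse 35 thus lay among the controls and the other 3 above them. The D3 change was 0.68 ± 0.18 (SE; limma adjusted p = 0.0179) and became 0.44 (adjusted p = 0.0561) without mouse 34. It was 0.66 and not called with median centring (limma adjusted p = 0.253), and 1.58 and called with processed signals (limma adjusted p = 0.00525). The lung signals of Mmp9 in control mice were also dim, at 99.1 to 128.1. D1 mice ranged from -1.56 to -1.11 and D2 mice from -1.66 to -1.17, both overlapping the controls, with changes of 0.15 and 0.03 (0.57 and 0.17 with processed signals) that were not called. Of 8 other metalloproteinases and inhibitors tested, Mmp2, a gelatinase of stromal cells, and Timp3, an inhibitor bound to the matrix, were called higher at D3 by limma (0.86, adjusted p = 0.00137, and 0.66, adjusted p = 0.00115). Both remained called without mouse 34.

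Retnlg encodes a small secreted protein of the resistin family found in mouse neutrophils. Its control values (NM_181596) were 1.18, 1.23, 1.08, 1.65 and 1.33, and its D3 values were 2.11, 2.09, 3.97 and 2.21. All 4 D3 mice were above the highest control, and mouse 34 stood well above the other 3. The change was 1.30 ± 0.30 (SE; limma adjusted p = 0.00844), or 2.47-fold, and 0.84 without mouse 34 (adjusted p = 0.0126). It was of like size but not called with median centring (1.24, limma adjusted p = 0.168) and with processed signals (1.34, limma adjusted p = 0.0846). D1 mice had 2.43, 2.07, 1.86 and 1.54 and D2 mice 2.32, 1.61, 1.90, 1.63 and 1.26, with changes of 0.68 (limma adjusted p = 0.213) and 0.45 (adjusted p = 0.506), which were 1.09 and 0.92 with processed signals and not called.

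Cxcr2 is the receptor by which neutrophils follow CXC chemokines out of the marrow and into tissue. Control mice had 1.21, 0.92, 0.58, 1.12 and 0.57 (NM_009909), and D3 mice had 1.39, 1.63, 2.63 and 1.57. The D3 mice lay above the controls without overlap, as they did for S100a8, Retnlg and Mmp8, which makes 4 of the 10 genes against 7.45% of all probes. The D3 change was 0.92 ± 0.22 (SE; limma adjusted p = 0.0108), or 1.9-fold, and 0.65 without mouse 34 (adjusted p = 0.0361). It was not called with median centring (0.87, limma adjusted p = 0.295) or with processed signals, where it was larger (1.47, limma adjusted p = 0.105). D1 mice, at 0.90 to 1.27, and D2 mice, at 0.78 to 1.68, overlapped the controls, with changes of 0.17 and 0.42 that were not called (0.38 and 0.93 with processed signals, also not called).

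The other receptor, Csf3r, had lower values in treated mice. Its control values (NM_007782) were 1.85, 1.63, 1.63, 1.56 and 1.42, its D1 values 1.32, 1.00, 1.30 and 1.38, its D2 values 1.45, 1.35, 1.32, 1.61 and 1.44, and its D3 values 1.31, 1.23, 1.19 and 0.90. D1 and D3 mice lay below every control mouse, as for 4.18% and 7.14% of all probes. The changes were -0.37 ± 0.10 (limma adjusted p = 0.0446), -0.18 ± 0.10 (0.405) and -0.46 ± 0.10 (0.00656), which at D3 is 1.37-fold lower and under the 1.5-fold threshold, and with median centring the D1 and D2 values turned to 0.06. The D3 value also depended on the processing: it was -0.20 with median centring (limma adjusted p = 0.881), -0.26 with the lung channel alone (limma adjusted p = 0.0633) and -0.40 with processed signals (limma adjusted p = 0.057). The probe was bright in both channels, with a median lung signal of 53300 and a median reference signal of 24850, against 114 to 151.5 (red) and 65 to 93 (green) for the median spot of an array. These values are those of a probe assigned to Csf3r by its RefSeq identifier alone.

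Ngp, Camp and Ltf are secondary granule proteins: a cystatin-like granule protein, the cathelicidin precursor and lactoferrin, which binds iron. For Ngp (NM_008694), control mice had 0.19, 0.99, -0.14, 0.95 and 0.47 and D1 mice had 1.17, 1.53, 0.84 and 1.5. D2 mice had 1.54, 0.83, 1.01, 0.98 and 1.48, and D3 mice 0.79, 0.36, 1.33 and 0.53. In D1, 3 of the 4 mice were above every control, whereas 3 of the 4 D3 mice lay within the control range. The changes of 0.77, 0.67 and 0.26 had limma adjusted p-values of 0.068, 0.131 and 0.531. With mouse 23 counted in D1 the D1 change was 0.81 (limma adjusted p = 0.0385) and was called. With processed signals the Ngp changes were 2.00, 2.48 and 0.86 at D1, D2 and D3, with limma adjusted p-values of 0.146, 0.0908 and 0.519. Without mouse 34 the D3 change was 0.07. Ngp was well above background in all 13 treated mice but in 3 of the 5 controls (not in mice 1 and 3, the 2 lowest), so its changes rest in part on control values near background. It passed the filter for testing through the treated groups alone.

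Camp (NM_009921) varied most among the controls. By its brighter probe, control mice 2 and 4 both had 2.66, above the 0.68, 0.55 and 1.48 of mice 1, 3 and 5, and the control SD was 1.03. D1 mice had 2.66, 3.07, 2.43 and 3.41, D2 mice 3.18, 2.47, 2.79, 2.66 and 3.62, and D3 mice 2.37, 2.02, 3.53 and 2.07. The changes were 1.29 ± 0.42, 1.34 ± 0.39 and 0.89 ± 0.42 (SE), with limma adjusted p-values of 0.0815, 0.0832 and 0.179. The D3 change was 0.55 without mouse 34. Camp would have been called at D1 and D2 without control mouse 2 (limma adjusted p = 0.0339 and 0.0385) or without control mouse 4 (0.0446 and 0.0406), and was called at D1 with mouse 23 counted there (1.43, limma adjusted p = 0.0394). The dimmer probe followed the brighter one across mice (Pearson r = 0.97 over 18 mice, given as a description) and had a smaller control SD of 0.61. By it, Camp was called at D1 (1.04, limma adjusted p = 0.0459) and at D2 (1.16, 0.0293), and was not at D3 (0.76, 0.098). The D2 call of this probe was lost with mouse 23 counted in D1 (1.05, limma adjusted p = 0.0688). These calls were lost in 11 and 6 of the 18 analyses with 1 mouse left out, and in 7 and 4 of 12 other alternatives.

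Ltf (NM_008522) was carried by single mice in several groups. Control mice 1, 2, 3 and 5 had 2.71, 2.74, 2.66 and 2.78, and mouse 4 had 4.55. D1 mice had 4.00, 5.42, 3.24 and 4.60, D2 mice 4.59, 3.01, 3.29, 3.41 and 3.90, and D3 mice 3.54, 2.86, 5.55 and 2.66. All groups overlapped, and the D3 change of 0.57 ± 0.54 (SE; limma adjusted p = 0.553) became -0.07 without mouse 34. The changes at D1 and D2 were 1.23 and 0.55 (adjusted p = 0.205 and 0.683 by limma). With processed signals Ltf was at 0.29, -0.15 and -0.14 at D1, D2 and D3, so that the last 2 changed sign.

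A 2-sided exact permutation test of the 4 D3 against the 5 D0 mice, taken for 1 gene at a time without adjustment, gave p = 0.00794, the smallest it can give, for S100a8, Retnlg, Mmp8, Cxcr2 and Csf3r. That value needs groups without overlap, which 7.45% of all tested probes had in the higher and 7.14% in the lower direction. The test gave exact p = 0.0159 for Mmp9 and 0.0476 for S100a9, and exact p = 0.198, 0.429 and 0.484 for Camp, Ngp and Ltf. Within each of the 3 slides, which all held every dose group, the D3 minus D0 difference was above 0 for S100a8 (1.30 to 1.74), S100a9 (0.71 to 0.93), Retnlg (0.85 to 1.75), Mmp8 (1.07 to 1.62), Mmp9 (0.37 to 0.73), Cxcr2 (0.45 to 1.34) and Camp (0.52 to 1.18). It was below 0 on all 3 for Csf3r. The slides are not 3 separate sets of D3 mice: slide 3 held a single D3 array, of mouse 35, whose other array was on slide 2, and its only D2 array was that of mouse 23. All mice of a dose lay in the same array column of their slides, and the effects of column and dose cannot be told apart.

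Between treated groups, none of the 10 genes was called by limma. Of the 10, 6 had an unadjusted p under 0.05 between D3 and D2, 3 between D3 and D1, and none between D2 and D1. An unadjusted p under 0.05 was found for 11.7%, 7.65% and 9.79% of all tested probes in these comparisons, and 0.106%, 0.145% and 0% of probes were called. The 6 were S100a8, Retnlg, Mmp8, Mmp9 and Cxcr2, higher at D3, and Csf3r, lower at D3. The fitted D3 minus D1 difference was 0.75 for Cxcr2 (95% interval 0.26 to 1.24) and -0.51 for Ngp (-1.02 to 0.01). A linear trend over dose was called by limma for the same 6 genes as the D3 change, with fitted changes from D0 to D3 between 0.65 for Mmp9 and 1.57 for S100a8, where 0.917% of probes had a higher trend called. The trend was called for 1 of the 10 genes with median centring and for 3 with processed signals, against 0.199% and 1.07% of probes. For Ngp, Camp and Ltf the trend gave 0.08, 0.63 and 0.23 and was not called.

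Mouse 34 carried a large share of the D3 means. It had the highest value of the 4 D3 mice for 9 of the 10 genes and the highest of all 18 mice for 7 (S100a8, S100a9, Retnlg, Mmp8, Mmp9, Cxcr2 and Ltf). Its S100a8 value was 3.12 above the D0 mean, against 1.48, 1.65 and 0.82 in mice 31, 32 and 35, and its Retnlg value was 2.68 above, against 0.82, 0.80 and 0.92. Mmp8 was more even, at 1.95 against 1.37, 1.41 and 1.24. Without mouse 34, 4 genes were called at D3 (S100a8, Retnlg, Mmp8 and Cxcr2), with changes of 1.32, 0.84, 1.34 and 0.65, where 1.21% of all probes were called higher, and each of these 4 was called in all 18 analyses that left out 1 mouse. With mouse 34 left out of the shared model, 3 genes were called at D1 (S100a8, Retnlg and Mmp8) and 2 at D2 (S100a8 and Mmp8), against 0.602% and 0.444% of all probes called higher in that fit.

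**Figure D3:**
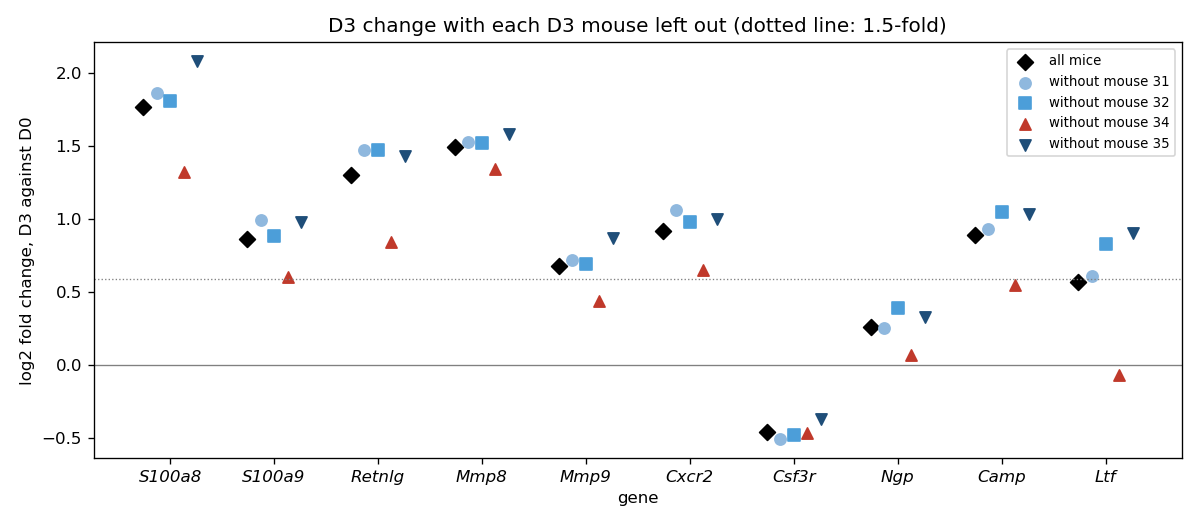
Log2 fold change of D3 against D0 (y axis) for each gene (x axis) with all mice and with each of the 4 D3 mice left out, and a dotted line at 1.5-fold. Leaving out mouse 34 lowers S100a8 from 1.77 to 1.32 and Ltf from 0.57 to -0.07, whereas Mmp8 moves from 1.49 to 1.34.

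Mouse 34 was also high in other lists of cell markers. Its mean deviation from the D0 mean was 0.42 over 8 monocyte genes, 0.52 over 7 T cell genes and 1.29 over 5 heart muscle genes, each the highest of D3, and 0.65 over 6 platelet genes, against a D3 range of 0.04 to 0.73. It was -0.50 over 9 alveolar macrophage genes and -0.75 over 6 NK cell genes. On its array, 62.7% of lung-channel spots were well above background, against 54.5% to 64.7% over all arrays. The part of these in its neutrophil values was not tested. Mouse 35, whose 2 arrays lay on different slides, differed between them by 0.01 (Mmp9) to 0.37 (S100a9) for the brightest probes, where the median over all tested probes was 0.11.

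**Figure D4:**
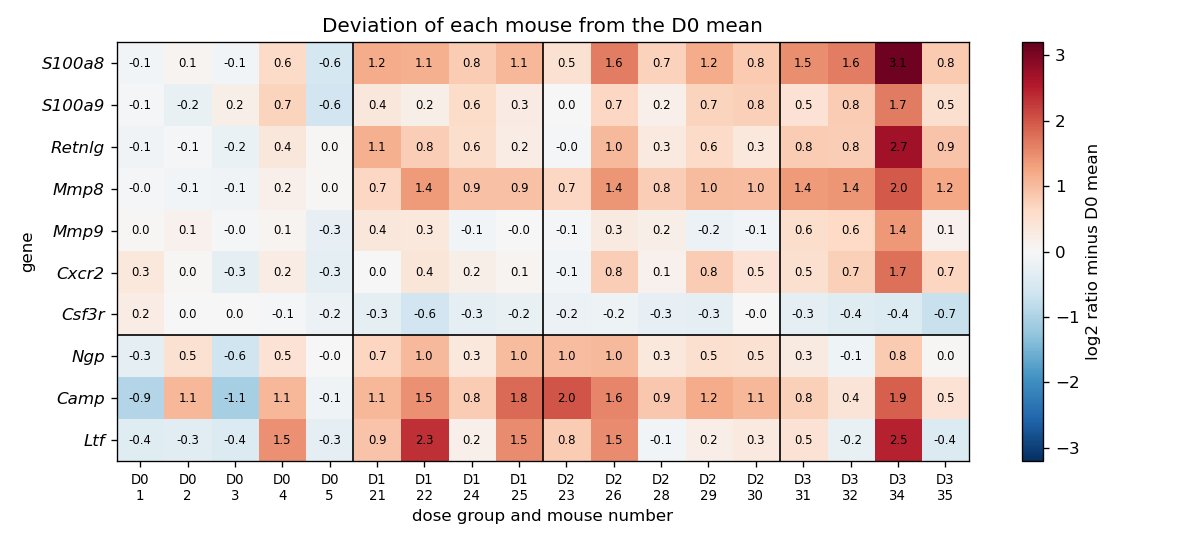
Log2 ratio of each mouse (columns, by dose group and mouse number) minus the D0 mean of the gene (rows), with the value printed and coloured red where higher and blue where lower. The column of D3 mouse 34 is the darkest red, and Csf3r is blue or 0 throughout the treated mice, with loess (its D1 and D2 mean changes were 0.06 with median centring).

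Correlations of the genes across mice are described here with no test, because they were read from the same 18 mice, which share arrays and doses. Pearson r between pairs of S100a8, S100a9, Retnlg, Mmp8, Mmp9 and Cxcr2 was 0.64 to 0.91 (median 0.82), and 0.50 to 0.84 after the group means were removed. Ngp, Camp and Ltf correlated with each other at 0.72 to 0.95, with the highest value for Ngp and Camp, and at 0.71 to 0.95 within groups. Between the sets r was 0.21 to 0.64 (median 0.48), and 0.18 to 0.78 (median 0.50) within groups. There the sets were less distinct, since Ltf correlated with S100a8 at 0.78, with Mmp8 at 0.76 and with Mmp9 at 0.70, as closely as with Camp (0.71). Csf3r ran from -0.71 to -0.29 with the other 9 genes, and from -0.15 to 0.23 within groups.

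The first of these sets holds the 6 genes called at D3, so that its higher level in D3 mice follows from how it was formed, and its values are given as a description. The mean difference from the D0 mean over the first 6 genes was 0.87, 1.01, 2.09 and 0.72 in mice 31, 32, 34 and 35, and over Ngp, Camp and Ltf it was 0.50, 0.02, 1.74 and 0.02. In D1 mice 21, 22, 24 and 25 the first set had 0.63, 0.70, 0.50 and 0.43 and the second had 0.88, 1.61, 0.44 and 1.44. In D2 mice 26, 28, 29, 30 and 23 the first set had 0.97, 0.39, 0.69, 0.55 and 0.16 and the second 1.37, 0.38, 0.63, 0.62 and 1.27. The sets were near each other in D2 mice 28, 29 and 30, and the second was the higher in mice 26 and 23.

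**Figure D5:**
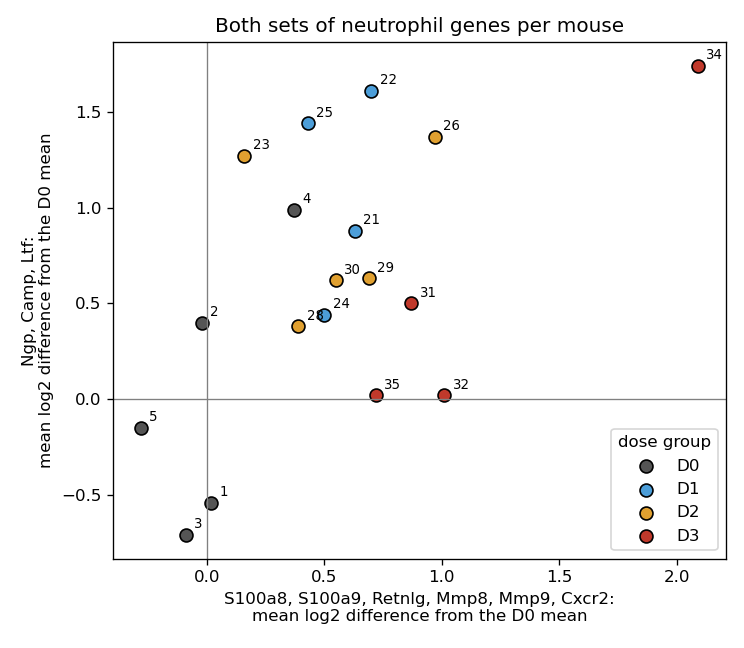
Mean log2 difference from the D0 mean over S100a8, S100a9, Retnlg, Mmp8, Mmp9 and Cxcr2 (x axis) against that over Ngp, Camp and Ltf (y axis), 1 point per mouse with its number and the colour of its dose group. D3 mice 32 and 35 lie at 1.01 and 0.72 on the x axis and at 0.02 on the y axis, and mouse 34 lies apart at 2.09 and 1.74.

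Other genes of the neutrophil were read from lists of granule proteins, receptors, ligands and regulators. Of 5 primary granule genes, 3 were tested. Mpo, myeloperoxidase, was called higher at D1 by limma (0.61 ± 0.17, SE, adjusted p = 0.044) and was at 0.40 and 0.04 at D2 and D3, whereas Elane and Ctsg, serine proteases, were not called at any dose (D3 -0.13 and 0.03). Probes of Prtn3 and Bpi were too dim to test. Of 4 further secondary granule genes tested, Lcn2, the iron-siderophore binder lipocalin 2, was called at D3 (0.81 ± 0.20; limma adjusted p = 0.0127) and Cd177, Chil1 and Lyz2 were not (0.38, -0.18 and -0.06).

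Of 23 tested genes among 26 others of mature neutrophils, 7 were called higher and 1 lower at D3, against 1.20% and 1.22% of all tested probes. The higher ones included Stfa2l1, a stefin protease inhibitor (1.36), Clec4d, a C-type lectin receptor (1.33), Asprv1, an aspartic protease (1.08), and Il1b, the cytokine interleukin 1 beta (1.07), with limma adjusted p-values from 0.000318 to 0.00793. Il1r2, the decoy receptor for that cytokine, Cxcr1 and Slfn4 were called at 0.72, 0.82 and 0.62. Without mouse 34, 4 of the 7 were called (Stfa2l1, Clec4d, Asprv1 and Il1b), while Il1r2 (0.56, limma adjusted p = 0.00514) and Slfn4 (0.49, 0.0478) fell under the fold threshold alone and Cxcr1 (0.65, 0.145) under that of p. Clec4d and Il1r2 were also called at D1 (0.75, limma adjusted p = 0.0363, and 0.69, 0.006). The gene called lower was Fpr1, the receptor for bacterial formyl peptides, both at D2 (-1.27, limma adjusted p = 0.00327) and at D3 (-1.13, 0.00318). It was below the D0 mean in all 4 D3 mice. Fpr2, Hdc, Mcemp1, Hp, Lrg1, Trem1 and Anxa1 were also lower at D3 (-0.55 to -0.06) and were not called with all mice. The median change over the 23 genes at D3 was 0.30. Ly6g had no probe here.

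Among ligands and growth factors, 9 of 14 genes were tested and 2 were called at D3, both higher, against 1.20% of all tested probes. Cxcl1, a ligand of Cxcr2, was called higher (0.69 ± 0.18, SE; limma adjusted p = 0.017), with D3 values from -2.81 to -2.32 and control values from -3.72 to -2.89. Pf4, a platelet chemokine, was at 0.73 (limma adjusted p = 0.0386) and was not called without mouse 34 (0.64, 0.11). Cxcl5, Cxcl15, Ppbp, Cxcl12, Cxcr4, Csf2 and Tnf were not called at D3, with values from -0.44 to 0.59, and Csf3, Cxcl2, Cxcl3, Il17a and Il6 were too dim to test.

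None of 8 transcription factors of granulocyte development was called. Cebpe, which drives secondary granule genes, was at 0.44 at D3 (limma adjusted p = 0.00605) and Cebpb and Runx1 at -0.56 and -0.47 (0.00251 and 0.0011), all under 1.5-fold. None of 6 subunits of the NADPH oxidase, the enzyme of the oxidative burst, was called at any dose. Of 9 integrins, Fc receptors and pattern receptors of phagocytes, 1 was called at any dose, Tlr2, at D2 (-0.60; limma adjusted p = 0.0232).

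Some lists of markers of other cells also differed from the controls, not always in the order of dose, and their part in the results above was not tested. No gene of the T cell, B cell, mast cell and basophil, lung epithelium or heart muscle lists was called at any dose. Mean deviation from the D0 mean over 9 alveolar macrophage genes was -0.19 to 0.09 in D0 mice, -0.40 to 0.26 in D1, -0.90 to -0.16 in D2 and -0.58 to -0.30 in D3. Of the 9, 2 were called lower at D2 and 1 at D3. Marco in this list was higher, at 0.71, 0.37 and 0.94 at D1, D2 and D3, and not called. Over 6 NK cell genes the mean deviation was -0.42 to 0.42 in D0 and -1.10 to -0.75 in D3, with 2 called lower, of which granzyme A was at -3.07. The other NK cell genes were at -0.66 to -0.38 at D3, so granzyme A carried much of this mean. Over 4 genes of proliferating cells the mean deviation was 0.66 to 1.36 in D1, 0.54 to 0.99 in D2 and 0.11 to 0.75 in D3, against -0.09 to 0.15 in D0, with 4, 2 and 0 of 4 called higher at D1, D2 and D3. Of 8 monocyte genes, 2 were called higher at D3 (F13a1 at 1.11 and Ms4a6c at 0.62), and the median over the 8 was 0.02. Ms4a4c was lower, at -0.46 (limma adjusted p = 0.00605, under 1.5-fold). Of 6 platelet genes, 2 were called higher at D3. None of 9 red blood cell genes was called, and their mean deviation was -0.16 to 0.16 in D0 and -0.44 to 0.42 in D3. The defining eosinophil genes Epx, Prg2 and Ccr3 were too dim to test.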

How the data were processed

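Lung RNA of 18 mice was measured on 19 two-colour arrays (labels and scanner files). Spot intensity values came from the deposited scanner files, and normalized log2 ratios (lung over reference) from a table the authors deposited. The table served as an alternative and correlated with the ratios used here at 0.995 or more on every array. Per the file headers the image software was version 11.0.1.1; the array design follows build mm9. As in the study's methods, median signals were used without background subtraction. Here, control spots (3671 of 62976 per array) and outlier spots (171 to 323) were left out, each array was normalized by loess (span 0.3), and spots of a probe were averaged. Tested probes had a lung signal well above background in 4 or more mice of 1 group. The median red signal per array was 114 to 151.5, the median green signal was 65 to 93, without saturated spots. Precision is limited by the number of arrays.

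Groups were compared with limma 3.58.1 (R 4.3.3) in 1 model of 4 group means, in place of the study's MAANOVA, which was not installed. The code was tested on simulated data. Symbols came from RefSeq, in which 21465 of 22765 identifiers matched, and a gene with several probes was read by the brightest. Named were the 10 genes, called genes of each neutrophil list (4 per list by size at D3), and all ligands and primary granule genes. Further genes were picked after their values were seen (Cxcr1, Slfn4, the lower mature neutrophil genes, the uncalled secondary granule genes, transcription factors and markers). The genes, lists and tests were chosen with earlier results of these data known. Alternatives covered slide, normalization, background, filter, the reference channel, mouse 23, mouse 35 and each mouse left out.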

Additional observations from a re-analysis of the deposited data

Results flagged for a closer look

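A single mouse stood apart from its group in 2 of 44 sets of values (11 probes in 4 groups), where chance alone gives about 1 in 20. For Retnlg in D3, mouse 34 had a log2 ratio of 3.97 and the next mouse 2.21, a gap that took up a share of 0.935 of the group's whole range. For Ltf in D0, mouse 4 had 4.55 and the next mouse 2.78, a share of 0.937. The corresponding shares of mouse 34 in D3 were 0.641 for S100a8 and 0.8 for Cxcr2, below the critical value for 4 mice.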

How the results depend on the processing

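Counts of the 10 genes called by limma are given here. At D3 the count was 6, and 4 to 6 with each mouse left out. It fell to 2 with median centring in place of loess (S100a8 and Mmp8 remained; S100a9, Retnlg, Mmp9 and Cxcr2 were at 0.92, 1.24, 0.66 and 0.87, close to their values with loess) and to 3 with the scanner software's processed signals (S100a8, Mmp8 and Mmp9), where 0.261% and 1.57% of all probes were called higher, against 1.20% with loess. With processed signals the D3 changes were 1.76 for S100a8, 0.31 for S100a9, 1.34 for Retnlg, 2.45 for Mmp8, 1.58 for Mmp9 and 1.47 for Cxcr2, so that 4 of the 6 moved by over 1.5 times, and with the lung channel alone S100a9 was at 1.61. The linear trend gave 6 genes, 4 to 6 with each mouse left out, 1 with median centring and 3 with processed signals, where 0.917%, 0.199% and 1.07% of all probes had a higher trend called with loess, median centring and processed signals. At D1 the count was 1, and 1 to 3 with each mouse left out: 3 without D0 mouse 2 or without D3 mouse 34, and 2 without D0 mouse 4 or without D3 mouse 35. It was 2 with slide as a block (Mmp8 and S100a8, the latter at 1.11 with a limma adjusted p of 0.0348), 0 with median centring, 3 with mouse 23 counted in D1 (Mmp8, Ngp and Camp) and 2 with both Camp probes counted. At D2 it was 1, and 1 to 2 with each mouse left out, 2 without D0 mouse 2, D0 mouse 4 or D3 mouse 34, 0 with processed signals and 2 with both Camp probes counted. For slide as a block, mouse 23 in D1 and mice other than 34 left out, the share of all probes called was not computed. The count between treated groups was 0 under every alternative.

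With processed signals Ngp was at 2.00 and 2.48 at D1 and D2 and Ltf at 0.29 at D1, none of them called. Values that changed sign were small in most cases: Csf3r at D1 and D2 (0.06 and 0.06 with median centring), Ltf at D2 and D3 (-0.15 and -0.14 with processed signals) and at D3 without mouse 34 (-0.07, within -0.07 to 0.93 over all mice left out), and Mmp9 at D2 (-0.03 with the deposited log2 ratios, and -0.04 to 0.08 with each mouse left out, below 0 without mouse 5, 26 or 28). The cause of these differences was not tested. No paired analysis was possible because each mouse number occurs in 1 group only, and slide, which held all groups, was fitted as a block instead. The list of other mature neutrophil genes, with 7 higher and 1 lower at D3, gave 4 higher and 2 lower (Fpr1 and Fpr2) without mouse 34, an alternative chosen after seeing the data. Probes near background, as for Ngp, dim probes, as for Mmp8 and Mmp9, and 4 or 5 mice per group limit what differences could be seen.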

Other observations

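Outside the 10 genes, the genes whose log2 ratios followed their mean most closely over 18 mice were Il1b (Pearson r = 0.885), Pram1, an adaptor protein of myeloid cells (0.869), Clec4d (0.86), Cstdc4, a stefin-type protease inhibitor (0.852), F13a1, a coagulation factor subunit of monocytes and macrophages (0.838), and Il1r2 (0.833). These correlations are descriptions over mice that share arrays and dose groups. After the group means were removed, Clec10a, a lectin of macrophages and dendritic cells, came first (0.869), followed by Il1b (0.854), Cstdc4 (0.842), Clec4d (0.825), Phyh (0.822) and Vipr1 (0.8). Clec10a itself was at -0.46 at D3 and was not called (limma adjusted p = 0.0995).

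The nearest genes to S100a8 alone were Clec4d (r = 0.944), Il1b (0.914) and Cstdc4 (0.903). The nearest to Ngp alone was Mpo (0.886), a primary granule gene that was called at D1 and was at 0.04 at D3, followed by Dtna (0.821) and Gm10406 (0.804).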
